A study of Mus musculus with 12 samples.

Results

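Cited2 and 9 genes of the hypoxia-inducible factor (HIF) pathway were followed in mouse gastrocnemius muscle at rest and after running: Cited2, Cited4, Hif1a, Epas1, Arnt, Egln1, Egln2, Egln3, Vhl and Vegfa. They were taken by gene symbol and are 10 of the 43432 gene identifiers in the table of raw counts. All 10 passed the filter on low counts that left 14486 genes for testing. The set was chosen by a measured value, the low level of Cited2 in exercised WT muscle, so values of the 10 genes in the comparison of exercised with sedentary WT are given as a description, without a test.

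The study asked how cellular Feimin (cFeimin) bears on exercise performance and energy use in mice. All mice were male and fell into 4 groups: sedentary fl/fl mice (called WT, with the floxed allele), sedentary cFeimin MKO mice, and WT and MKO mice taken after 90 min of running at a constant speed set relative to their maximum. Each group had 3 libraries, 12 in all, from the gastrocnemius. The sources used here leave out what drives the deletion, the age of the mice and the delay between running and sampling, and nothing in the labels says that each library came from a separate animal, so p-values measure the spread between these libraries, which may be technical.

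HIF is a pair of proteins, an oxygen-regulated alpha subunit (HIF-1alpha from Hif1a, HIF-2alpha from Epas1) and a constant partner encoded by Arnt. In oxygen, the prolyl hydroxylases encoded by Egln1, Egln2 and Egln3 mark the alpha subunit and the VHL protein sends it for destruction; when oxygen falls, as it does in working muscle, the alpha subunit escapes, binds p300 or CBP and switches on targets such as Vegfa, an angiogenic factor made by muscle fibres. CITED2 binds the same domain of p300 and CBP as the HIF alpha subunits and so limits HIF activity, and its own gene is a HIF target; CITED4 is a related protein. Much of this control acts on the proteins, which were not measured here.

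The DNA just before the start of the gene is shown for 4 members: the CITED pair, whose levels are compared throughout, and Egln3 and Vegfa, which are established HIF targets. The sequences are from RefSeq for build GRCm38.p6, 5′ to 3′ on the strand of the gene, and capitals mark the letters ACGTG or GCGTG, the HIF core, on either strand. They lie at chr10:17722978-17723217 (plus strand, Cited2), chr4:120666313-120666562 (plus, Cited4), chr12:54203875-54204124 (minus, Egln3) and chr17:46032378-46032627 (minus, Vegfa).
Cited2: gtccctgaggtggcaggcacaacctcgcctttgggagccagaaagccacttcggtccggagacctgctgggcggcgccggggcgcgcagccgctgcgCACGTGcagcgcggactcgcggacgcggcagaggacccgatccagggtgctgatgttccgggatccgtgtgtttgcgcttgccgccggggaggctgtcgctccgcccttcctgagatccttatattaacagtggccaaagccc
Cited4: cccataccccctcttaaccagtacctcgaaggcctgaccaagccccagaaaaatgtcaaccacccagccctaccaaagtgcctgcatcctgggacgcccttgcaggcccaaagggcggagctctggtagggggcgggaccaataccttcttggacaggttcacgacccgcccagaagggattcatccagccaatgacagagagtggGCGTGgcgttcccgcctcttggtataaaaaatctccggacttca
Egln3: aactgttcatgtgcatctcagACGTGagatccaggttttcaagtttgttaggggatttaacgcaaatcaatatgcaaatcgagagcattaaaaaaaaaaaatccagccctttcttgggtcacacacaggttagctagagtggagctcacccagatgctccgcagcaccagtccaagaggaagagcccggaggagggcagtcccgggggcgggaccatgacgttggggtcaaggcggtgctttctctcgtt
Vegfa: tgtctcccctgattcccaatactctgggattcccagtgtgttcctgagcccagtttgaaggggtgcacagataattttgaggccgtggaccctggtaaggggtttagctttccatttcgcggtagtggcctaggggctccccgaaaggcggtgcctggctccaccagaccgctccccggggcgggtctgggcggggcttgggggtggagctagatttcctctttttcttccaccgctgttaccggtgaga

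In the Cited2 window the core stood inside CACGTG, a palindrome in which ACGTG reads on both strands, starting 153 bases before the RefSeq start. The Cited4 window held GCGTG 44 bases before the start and the Egln3 window held ACGTG 229 bases before it. The Vegfa window shown held neither. The other Vegfa window, not shown, held GCGTG 218 and ACGTG 211 bases before its own RefSeq start. That window (chr17:46025164-46025413) lies inside the annotated gene, which spans 46016993 to 46032369, and not before it. RefSeq windows were at hand for 9 members, 11 windows in all, of which the 250 bases before the start were searched on both strands for ACGTG and for GCGTG, for the E-box CACGTG, for the cAMP response element TGACGTCA and for the FoxO site TGTTTAC. At least 1 match to ACGTG or GCGTG was found for 8 of the 9 members, all but Vhl, and in 38.6% of all 32851 windows of that length. Vegfa is in that count only through its window inside the gene. The Hif1a window and 1 Egln2 window also lie inside the annotated gene. Egln2 and Vegfa had more than 1 window each, so the count of members and the share of windows are not like measures. CACGTG was found for Cited2 and Hif1a and in 6.02% of all windows, TGACGTCA for Arnt and in 1.55%, and TGTTTAC for none of the 9 and in 3.17%. A match describes the letters of the window and not a site in use.

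The libraries were of like depth, 14324010 to 14563501 counts each, so 3 counts stood for 0.181 to 0.222 CPM. Levels are normalised CPM, the counts scaled to a common library total with TMM factors, which correct that total for composition. B230219D22Rik, taken from general knowledge as the gene of Feimin, ran from 21.6 to 29.9 CPM in the 6 WT libraries and from 3.52 to 6.13 CPM in the 6 MKO libraries. The library of sedentary MKO replicate 3 stood apart, with 16.9% of counts from mitochondrial genes against 20.1 to 24.3% in the other 11, and with Myh7, the slow myosin heavy chain, at 11.2 CPM against 98.6 to 423 CPM.

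**Figure D1:**
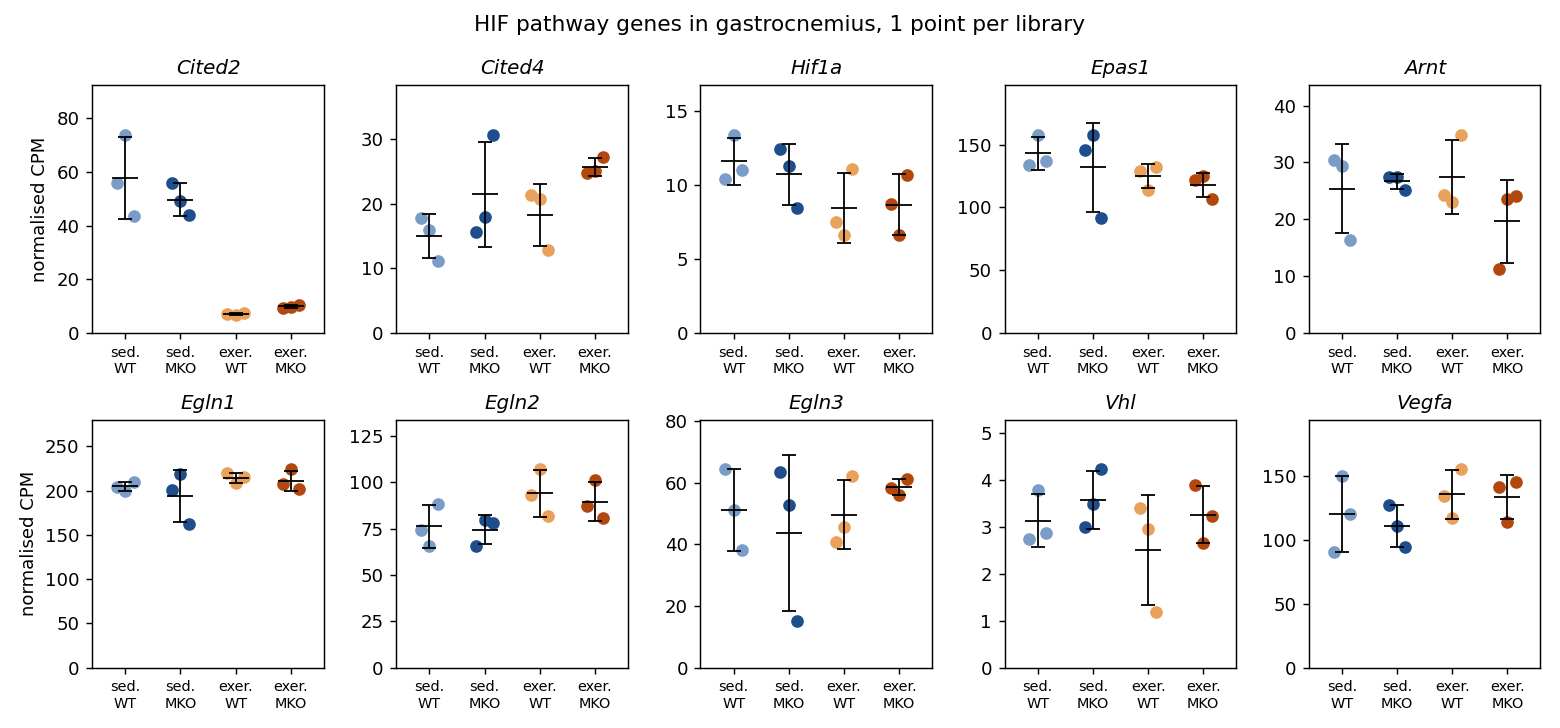
Normalised CPM (vertical axis, linear from 0, own scale per gene) of the 10 genes in the 4 groups; each point is 1 library, the horizontal bar is the mean and the whisker the SD (n = 3). Cited2 lay between 43.6 and 74.0 CPM in the 6 sedentary libraries and between 6.72 and 10.6 CPM in the 6 exercised ones, while the sedentary and exercised libraries of the other 9 genes covered overlapping ranges.

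Cited2 was the member whose level separated rest from running in both genotypes. This gene (ENSMUSG00000039910, chromosome 10, 17723218 to 17725674, plus strand, GRCm38) stood at 56.0, 74.0 and 43.6 CPM in sedentary WT replicates 1, 3 and 4. In sedentary MKO replicates 1, 2 and 3 it stood at 56.0, 49.4 and 43.9 CPM. The resting groups overlapped. In exercised WT replicates 3, 4 and 5 it was at 7.15, 6.72 and 7.37 CPM, and in exercised MKO replicates 1, 2 and 4 at 9.32, 9.78 and 10.6 CPM. Every exercised library lay below every sedentary one, and the 3 exercised WT libraries lay below the 3 exercised MKO libraries.

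In WT, the comparison that led to the set, mean Cited2 was 57.9 ± 15.3 CPM (SD, n = 3) at rest and 7.08 ± 0.331 CPM after running, a difference of -3.03 ± 0.18 (SE) on the log2 scale, or 8.16-fold lower. In MKO muscle, whose libraries are separate from those of WT, Cited2 fell from 49.7 ± 6.06 to 9.89 ± 0.632 CPM. The change was -2.33 ± 0.17 on the log2 scale (95% interval -2.71 to -1.95), 5.03-fold lower, with an adjusted p of 4.68e-05 in edgeR's quasi-likelihood test with Benjamini-Hochberg adjustment over 14486 genes. Of all genes tested in MKO it ranked 6 by p and 17 from the lowest log2 fold change. Cited2 was 1 of 10 members called in MKO, against 4.05% of all genes tested, and 1 of 10 in WT, against 8.24%. Nothing is read from either count, because the set was chosen by the level of Cited2. In bulk muscle, fewer cells that express Cited2 and less Cited2 RNA per cell cannot be told apart.

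Cited2 did not pass for genotype. At rest MKO minus WT was -0.22 ± 0.16 on the log2 scale (95% interval -0.56 to 0.13, edgeR adjusted p = 1). After running it was 0.48 ± 0.18, with the 3 MKO libraries above the 3 WT libraries. For Cited2 this comparison is a description, because the gene was chosen for its low level in these exercised WT libraries. Groups that do not overlap made up 23.1% of all genes in that comparison, where they were found for 2 of 10 members, and 10.3% at rest, where they were found for 0 of 10. No member passed after running, against 0.0345% of genes, nor at rest, against 0.00690%. Beside this difference, 7 of 7 macrophage markers were higher in MKO after running, each at an unadjusted p under 0.05 (median 1.1 on the log2 scale, summed levels of 39.3 to 80.7 CPM against 27.3 to 34.8 CPM in WT). Of 7 fibroblast markers 6 were higher, 4 at an unadjusted p under 0.05 (median 0.63, 570 to 792 CPM against 549 to 625 CPM). After running 2319 of 14486 genes had such a p. At rest 7 of 7 macrophage markers were also higher in MKO, 5 at such a p (median 0.59). Their sums there were 66.0 to 94.7 CPM against 49.1 to 56.6 CPM in WT. The 7 fibroblast markers were higher at rest too, 0 at such a p (median 0.31), and 545 of 14486 genes had one. No marker of these 2 lists passed for genotype after adjustment. None was at 0 in every library of a group, and their part in the result was not tested. The comparison after running shares the exercised WT libraries with the one from which the set was drawn. The running response differed between genotypes by 0.70 ± 0.24 (MKO minus WT, log2), given as a description because it holds the WT comparison.

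Cited4 (ENSMUSG00000070803, chromosome 4, 120666572 to 120667820, plus strand), the relative of Cited2, did not share its pattern. It was at 17.8, 15.9 and 11.2 CPM in sedentary WT and at 21.4, 20.7 and 12.8 CPM in exercised WT. Sedentary MKO libraries held 15.6, 18.0 and 30.7 CPM, the last in replicate 3, and exercised MKO libraries 24.8, 25 and 27.2 CPM. Rest and running overlapped in both genotypes. After running all 3 MKO libraries were above the 3 WT libraries, in a comparison where groups did not overlap for 23.1% of all genes tested. The running difference was 0.29 ± 0.27 (log2) in WT and 0.26 ± 0.26 in MKO (edgeR adjusted p = 0.73, 95% interval -0.31 to 0.82). MKO minus WT was 0.52 ± 0.26 at rest (adjusted p = 1) and 0.49 ± 0.26 after running (adjusted p = 0.372), neither past the threshold. Single libraries moved these values: without sedentary MKO replicate 3 the resting difference was 0.16 and the MKO running difference 0.62, without sedentary MKO replicate 1 the latter was 0.07, and without exercised WT replicate 5 the genotype difference after running was 0.28.

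**Figure D2:**
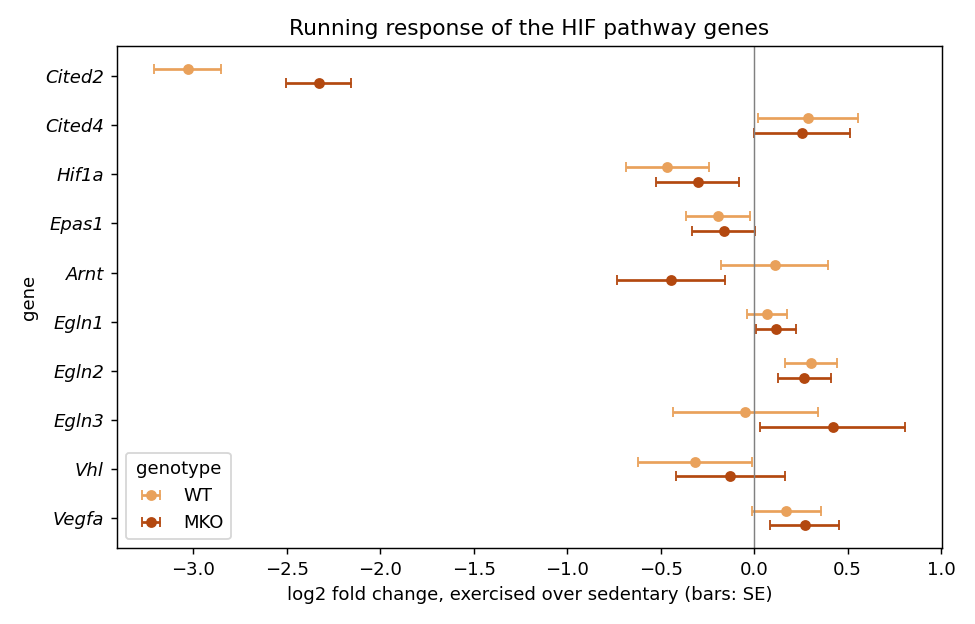
Log2 fold change of each member, exercised over sedentary (horizontal axis), in WT and MKO; points are values of the edgeR fit and bars are 1 SE to each side. Cited2 lies at -3.03 in WT and -2.33 in MKO, and the other 9 genes lie between -0.46 and 0.42.

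Among the genes of the HIF subunits, Hif1a (ENSMUSG00000021109, chromosome 12, 73901375 to 73947530, plus strand) was lower than Epas1, the other alpha subunit gene among the members. It held 10.4, 13.4 and 11 CPM in sedentary WT and 7.5, 6.65 and 11.1 CPM in exercised WT. In MKO it held 12.4, 11.3 and 8.41 CPM at rest and 8.7, 6.59 and 10.7 CPM after running. The groups overlapped in each comparison. Running differences were -0.46 ± 0.22 (log2) in WT and -0.30 ± 0.22 in MKO (edgeR adjusted p = 0.604, 95% interval -0.79 to 0.19). Exons of Hif1a share 330 bases with the antisense gene Gm15283 and 148 bases with a gene on its own strand, and the sources do not say if strand was used in counting, so its reads are not fully separable from theirs.

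Epas1 (ENSMUSG00000024140, chromosome 17, 86753700 to 86833410, plus strand), whose product HIF-2alpha is prominent in endothelium, was at 134, 158 and 137 CPM in sedentary WT and at 129, 114 and 132 CPM in exercised WT. It was at 146, 158 and 91.7 CPM in sedentary MKO, lowest in replicate 3, and at 122, 125 and 107 CPM in exercised MKO. The WT groups did not overlap, as in 27.3% of all genes tested there, and the MKO groups did. Its running difference was -0.19 ± 0.17 (log2) in WT and -0.16 ± 0.17 in MKO (edgeR adjusted p = 0.746).

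Arnt (ENSMUSG00000015522, chromosome 3, 95434388 to 95497240, plus strand), the shared partner, had a coefficient of variation of 23.7 to 37.4% in 3 groups and of 5.18% in sedentary MKO. It was at 30.4, 29.3 and 16.4 CPM in sedentary WT and at 24.2, 23.1 and 34.9 CPM in exercised WT. Sedentary MKO libraries held 27.4, 27.5 and 25.1 CPM and exercised MKO libraries 11.2, 23.6 and 24.1 CPM. The MKO groups did not overlap, as in 21.7% of all genes in that comparison, although 2 of the 3 exercised libraries lay close below the lowest sedentary one. The running difference was 0.11 ± 0.29 (log2) in WT and -0.45 ± 0.29 in MKO (edgeR adjusted p = 0.544), and MKO minus WT after running was -0.48 ± 0.29 (adjusted p = 0.424). Without exercised MKO replicate 1 the last 2 values were -0.16 and -0.20, and without sedentary WT replicate 4 the WT value turned to -0.11.

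The prolyl hydroxylase genes differed in level, and none passed in any comparison tested. Egln1 (ENSMUSG00000031987, chromosome 8, 124908587 to 124949324, minus strand) encodes PHD2, the main oxygen sensor of the pathway, and was the steadiest member, from 162 CPM in sedentary MKO replicate 3 to 224 CPM in exercised MKO replicate 2. Its highest library was 1.38 times its lowest, against 11 times for Cited2. Its running difference was 0.07 ± 0.11 (log2) in WT and 0.12 ± 0.11 in MKO, where the 95% interval ran from -0.11 to 0.35 (edgeR adjusted p = 0.689).

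Egln2 (ENSMUSG00000058709, chromosome 7, 27158658 to 27166802, minus strand), encoding PHD1, held 74.2, 65.9 and 88.5 CPM in sedentary WT and 93.2, 107 and 81.8 CPM in exercised WT. It held 65.4, 79.5 and 78.1 CPM in sedentary MKO and 87.0, 101 and 80.8 CPM in exercised MKO. The WT groups overlapped. Each exercised MKO library was above each sedentary one, in a comparison where groups did not overlap for 21.7% of all genes tested. The running difference was 0.30 ± 0.14 (log2) in WT and 0.27 ± 0.14 in MKO (95% interval -0.04 to 0.58, edgeR adjusted p = 0.421). Its exons share 11 bases with Cyp2t4 on the opposite strand.

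Egln3 (ENSMUSG00000035105, chromosome 12, 54178981 to 54203860, minus strand), encoding PHD3, had the widest spread within a group, with a coefficient of variation of 57.8% in sedentary MKO. Its levels were 64.3, 51.1 and 38.0 CPM in sedentary WT and 40.8, 45.7 and 62.1 CPM in exercised WT. They were 63.4, 52.7 and 15.2 CPM in sedentary MKO and 58.4, 55.9 and 61.2 CPM in exercised MKO. The value of 15.2 CPM came from replicate 3, the library that stood apart, and every other library was at 38.0 CPM or above. The running difference was -0.05 ± 0.39 (log2) in WT and 0.42 ± 0.39 in MKO (edgeR adjusted p = 0.701). Leaving out 1 library at a time moved it from -0.24 to 0.15 in WT and from 0.02 to 0.79 in MKO, where it was lowest without replicate 3 of the sedentary group and highest without replicate 1. MKO minus WT at rest was -0.23 ± 0.39 (adjusted p = 1), and 0.18 without that library.

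Vhl (ENSMUSG00000033933, chromosome 6, 113623959 to 113631633, plus strand), the substrate receptor of the ubiquitin ligase, had the fewest counts, 16 to 70 per library. It was at 2.75, 3.78 and 2.88 CPM in sedentary WT and at 3.40, 2.95 and 1.18 CPM in exercised WT. In MKO it was at 3, 3.48 and 4.23 CPM at rest and at 3.90, 2.67 and 3.23 CPM after running. The groups overlapped throughout, and the lowest value, exercised WT replicate 5, rests on the 16 counts. Running differences were -0.32 ± 0.31 (log2) in WT and -0.13 ± 0.29 in MKO (edgeR adjusted p = 0.909), with a 95% interval of -0.76 to 0.51 in MKO. Without exercised WT replicate 5 the WT value turned to 0.02, and without sedentary MKO replicate 3 the MKO value turned to 0.03.

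Vegfa (ENSMUSG00000023951, chromosome 17, 46016993 to 46032369, minus strand), a HIF target as Egln3 and Cited2 are, was at 90.7, 150 and 120 CPM in sedentary WT and at 134, 117 and 155 CPM in exercised WT. It was at 127, 111 and 94.0 CPM in sedentary MKO and at 141, 114 and 145 CPM in exercised MKO. Rest and running overlapped in both genotypes. The running difference was 0.17 ± 0.18 (log2) in WT and 0.27 ± 0.18 in MKO (95% interval -0.13 to 0.67, edgeR adjusted p = 0.563). The interval includes a rise of up to 0.67, and a p above the threshold does not show that Vegfa was level.

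Across the 9 members other than Cited2, running differences in MKO ran from -0.45 to 0.42 (log2), with adjusted p from 0.421 to 0.909 and none under 0.05 before adjustment. MKO minus WT ran from -0.23 to 0.52 at rest and from -0.48 to 0.49 after running, with 0 of 9 past the threshold and 0 of 9 under an unadjusted p of 0.05 in either comparison. The median over all genes tested lay between 0.00 and 0.01 in these comparisons. Under another scaling, by total counts alone, the running difference of Egln1 turned from 0.07 to -0.03 in WT and from 0.12 to -0.03 in MKO. Leaving out 1 library at a time gave MKO running differences of -0.48 to -0.14 for Hif1a, -0.36 to -0.01 for Epas1, 0.02 to 0.22 for Egln1, 0.17 to 0.34 for Egln2 and 0.18 to 0.38 for Vegfa.

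**Figure D3:**
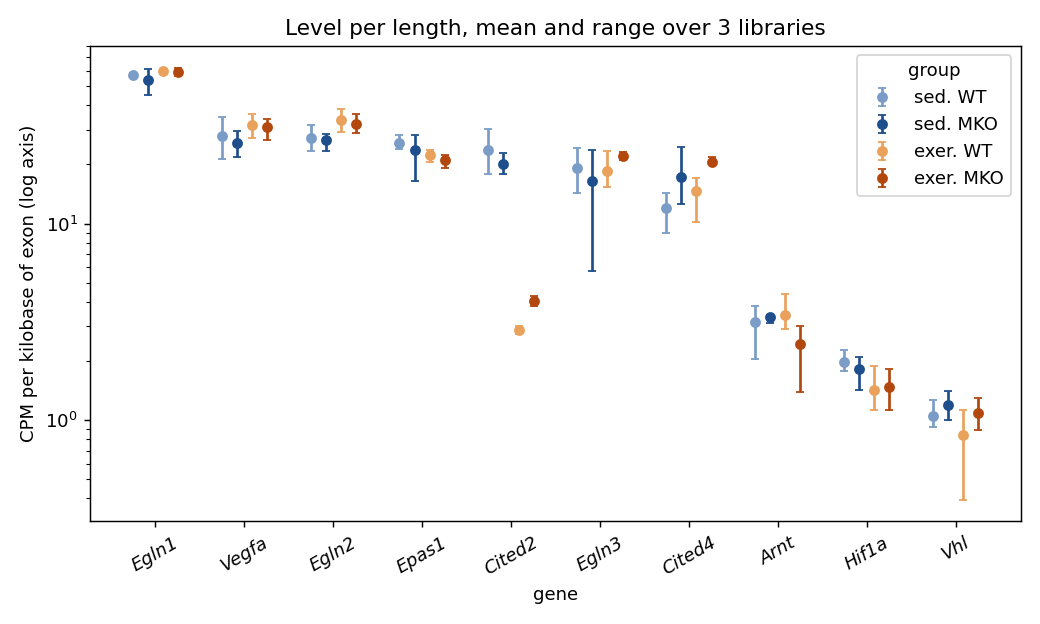
CPM per kilobase of exon (log axis) of the 10 genes; points are group means and bars the lowest to highest of 3 libraries. Egln1 was highest and Vhl lowest in all 4 groups, and Cited2 moved from 23.6 and 20.2 at rest to 2.88 and 4.02 after running.

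Divided by exon length, the levels had nearly the same order in the 4 groups, apart from Cited2. Egln1 was highest, at 54.0 to 59.7 CPM per kilobase by group mean, and its libraries did not overlap those of the next gene in any group. Vegfa, Egln2 and Epas1 followed at 21.1 to 33.6 CPM per kilobase, and Egln3 and Cited4 at 12 to 22. Neighbours among these genes mostly overlapped; after running, Vegfa lay clear above the next gene in both genotypes. Arnt was at 2.45 to 3.42 CPM per kilobase, Hif1a at 1.43 to 1.97 and Vhl at 0.838 to 1.19. At rest Cited2 ranked 5 of 10, at 23.6 ± 6.21 CPM per kilobase in WT and 20.2 ± 2.47 in MKO, and its libraries overlapped those of Epas1 above it and of the gene next below it. After running it ranked 8 in WT, at 2.88 ± 0.135 and overlapping Arnt, and 7 in MKO, at 4.02 ± 0.257 and clear of both neighbours.

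Genes that HIF is known to switch on were taken as a list of 44, chosen with earlier results of these data known. Of its members 43 were tested; Epo, at 0 to 1 counts, was not. After running, 6 rose and 1 fell in WT (16.3% past the threshold, against 8.24% of all genes), and 5 rose and 0 fell in MKO (11.6%, against 4.05%). All 5 that rose in MKO were among the 6 of WT: Hilpda, Bhlhe40, Hk2, Plod2 and P4ha2. The median of the list was 0.07 (log2) in WT and -0.0032 in MKO, beside -0.01 and 0.00 for all genes tested.

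Hilpda, an inhibitor of lipid breakdown, stood at 1.17 to 1.48 CPM in sedentary WT and at 4.28 to 4.95 CPM in exercised WT. In MKO it stood at 1.20 to 1.73 and 2.59 to 3.42 CPM. It rose by 1.85 ± 0.17 (log2) in WT (edgeR adjusted p = 8e-05) and by 1.01 ± 0.18 in MKO (0.007), and no library of rest reached one of running. Hk2, the hexokinase that traps glucose in muscle, went from 222 ± 26.1 to 502 ± 89.7 CPM in WT and from 229 ± 18.2 to 413 ± 9.69 CPM in MKO (adjusted p = 0.000253 and 0.004 with edgeR). Bhlhe40, a transcriptional repressor, went from 36.8 ± 6.49 to 91.8 ± 10 CPM in WT and from 40.4 ± 2.43 to 70.9 ± 5.68 CPM in MKO (0.000121 and 0.00489).

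Plod2, a lysyl hydroxylase, rose by 1.31 ± 0.21 (log2) in WT and 1.13 ± 0.20 in MKO (edgeR adjusted p = 0.0024 and 0.00694). P4ha2, a prolyl 4-hydroxylase subunit that acts on collagen and not on HIF, rose by 0.68 ± 0.11 and 0.70 ± 0.11 (0.00197 and 0.00369). P4ha1, named here outside the rule for named genes, rose by 0.50 ± 0.13 in WT (0.0309) and was at 0.42 ± 0.13 in MKO (0.108). The WT call of P4ha1 was lost without sedentary replicate 1, 3 or 4 (adjusted p = 0.0825, 0.062 and 0.0943) and without exercised replicate 3 or 4 (0.0963 and 0.094). Lox and Loxl2, which cross-link collagen and are also named outside the rule, did not pass: Lox was at -0.01 ± 0.29 in WT and -0.37 ± 0.28 in MKO, and Loxl2 at -0.28 ± 0.21 and -0.55 ± 0.20.

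The target that fell was Angptl4, an inhibitor of lipoprotein lipase that PPAR factors also control. It was at 14.2, 40.2 and 24.4 CPM in sedentary WT and at 1.98, 3.03 and 3.02 CPM in exercised WT, a change of -3.29 ± 0.55 (log2, edgeR adjusted p = 0.00311). In MKO it was at 17.7, 16.5 and 34.5 CPM at rest and at 6.64, 2.15 and 10.3 CPM after running, -1.85 ± 0.49 with an adjusted p of 0.0638. The MKO value passed with DESeq2 (0.0424) and with edgeR without sedentary WT replicate 1 or 3 (0.049 and 0.05) or exercised MKO replicate 4 (-2.37, 0.0488). The groups did not overlap in either genotype, as for 27.3% of all genes in WT and 21.7% in MKO. Apart from Hk2, which rose, 9 glycolytic enzymes of the list (Ldha, Pgk1, Aldoa, Eno1, Pgam1, Tpi1, Gapdh, Pkm and Pfkl) lay between -0.23 and 0.17 (log2) in WT and between -0.05 and 0.19 in MKO, with 0 of 9 past the threshold. Several have near-identical pseudogenes that could share their reads. Pfkfb3 and Pfkfb4, also on the list, were not counted among these 9 and did not pass. Pfkfb3, named outside the rule, went from 219 ± 126 to 112 ± 5.78 CPM in WT and from 176 ± 78.2 to 106 ± 13.2 CPM in MKO. Ddit4, also on the list and named outside the rule, did not pass in either genotype. It went from 45.6 to 61.6 CPM at rest to 155 to 200 CPM after running in MKO. In WT its libraries held 6.61 to 208 CPM at rest and 174 to 209 CPM after running. For genotype 0 of the 43 targets passed with edgeR, at rest (0 at an unadjusted p under 0.05) or after running (5).

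**Figure D4:**
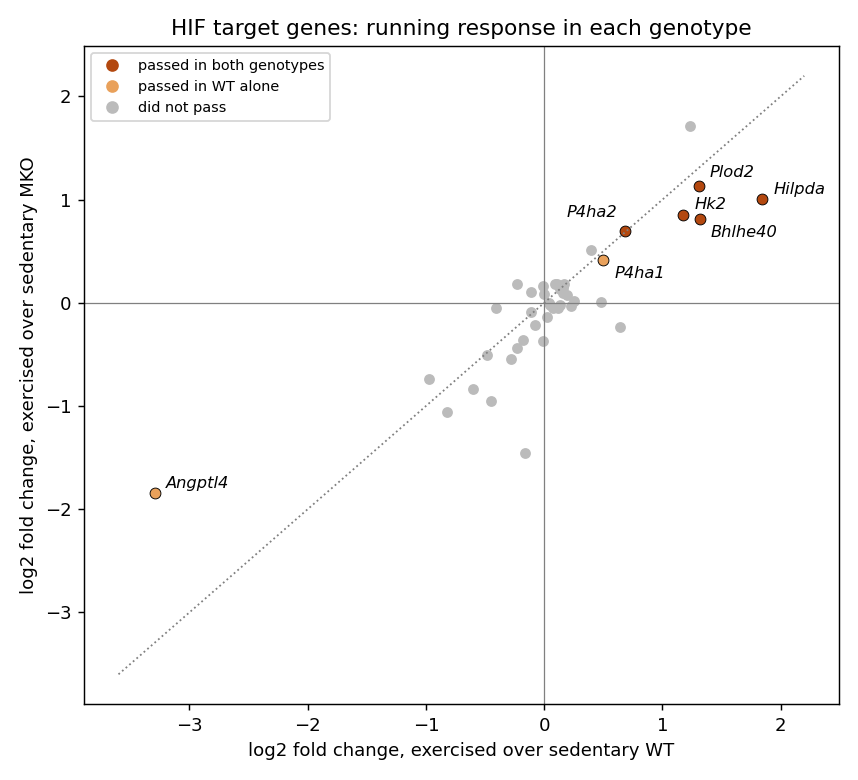
Log2 fold change, exercised over sedentary, of the 43 HIF target genes tested, in WT (horizontal axis) and MKO (vertical axis); 1 point per gene, and the dotted line marks equal change. Hilpda, Bhlhe40, Hk2, Plod2 and P4ha2 passed in both genotypes, and Angptl4 lies at -3.29 in WT and -1.85 in MKO.

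Siah2 rose in both genotypes. Of 15 further pathway components, 14 were tested: 1 rose and 1 fell in WT (2 of 14 past the threshold, against 8.24% of all genes), and 1 rose in MKO (7.14%, against 4.05%). Siah2, a ubiquitin ligase that acts on the prolyl hydroxylases, went from 7.12 ± 0.511 to 23.8 ± 5.26 CPM in WT, 1.74 ± 0.18 (log2, edgeR adjusted p = 0.00014), and from 6.06 ± 0.501 to 15.8 ± 3.14 CPM in MKO, 1.38 ± 0.18 (0.00163). The coactivator genes Ep300 and Crebbp, whose products CITED2 and the HIF alpha subunits both bind, were at -0.10 ± 0.12 and -0.08 ± 0.09 in WT and at -0.20 ± 0.13 and 0.07 ± 0.09 in MKO, all short of the threshold. Os9 fell by 0.44 in WT (adjusted p = 0.0189) and was at 0.05 ± 0.10 in MKO. Its call was lost without sedentary WT replicate 1 or 3 (0.0788 and 0.0535) and without exercised WT replicate 3 or 5 (0.0749 and 0.0655).

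Of the 9 other VEGF ligands and receptors, 1 rose in WT (11.1%, against 8.24% of all genes) and 0 passed in MKO with edgeR (2 at an unadjusted p under 0.05). Flt1, a VEGF receptor of endothelium, was at 39.9, 49.2 and 48.6 CPM in sedentary WT and at 80.9, 66.0 and 84.4 CPM in exercised WT, 0.75 ± 0.18 (log2, edgeR adjusted p = 0.0205). In MKO it was at 58.7, 43.4 and 36.2 CPM and at 55.9, 55.6 and 43.3 CPM, 0.16 ± 0.18 (adjusted p = 0.755). The groups were apart in WT, as for 27.3% of all genes tested there, and overlapped in MKO. But for the difference of the responses 0 of 14486 genes passed with edgeR (534 at an unadjusted p under 0.05, and 3 passed with DESeq2 and 4 with limma-voom). The WT call was lost without sedentary WT replicate 1 or 3 (adjusted p = 0.0848 and 0.0507) and without exercised WT replicate 3 or 5 (0.0713 and 0.0725).

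Among 11 transcription factors known to work with CITED2, 4 were tested and 1 rose in both genotypes (25% of those tested, against 8.24% of all genes called in WT and 4.05% in MKO). Smad3, which carries TGF-beta signals, went from 63.3, 64.1 and 77.6 CPM in sedentary WT to 163, 173 and 161 CPM in exercised WT, 1.28 ± 0.12 (log2, edgeR adjusted p = 7.21e-05). In MKO it went from 57.4, 56.0 and 73.2 CPM to 132, 132 and 131 CPM, 1.09 ± 0.12 (0.000499). Smad2, Pparg and Ppara did not pass, and of the 7 factors too low to test Tfap2c and Lhx3 had 0 counts in every library. No gene of these lists passed for genotype, at rest or after running.

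Marker genes of other cells were read beside Cited2. Of all genes tested, 8.24% were called with running in WT and 4.05% in MKO. Of 7 fibroblast markers 4 fell after running in WT (57.1%) and 3 in MKO (42.9%), and none rose. Pdgfra was among those that fell, at -1.63 ± 0.14 and -1.22 ± 0.13 (log2). Their summed level was 1150 to 1170 CPM in sedentary WT and 549 to 625 CPM in exercised WT, and 1200 to 1380 CPM and 570 to 792 CPM in MKO. Of 8 mural cell markers 2 fell in each genotype (25%), with sums of 432 to 549 and 399 to 509 CPM in WT and 425 to 476 and 311 to 410 CPM in MKO. Of 10 endothelial markers 2 rose and 2 fell in WT (40% past the threshold) and 1 rose and 2 fell in MKO (30%). Their sums were 229 to 244 and 224 to 235 CPM in WT and 209 to 249 and 163 to 228 CPM in MKO.

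Of 7 macrophage markers 1 fell in WT and 0 in MKO (0 to 3 in WT when 1 library was left out), with sums of 49.1 to 56.6 and 27.3 to 34.8 CPM in WT and 66.0 to 94.7 and 39.3 to 80.7 CPM in MKO. None of 5 red blood cell markers passed with edgeR, but all 5 were lower after running: in MKO at -1.63 to -1.3 (log2), each at an unadjusted p under 0.05 and with groups apart, and in WT at -1.04 to -0.836, 3 of them at such a p (sums of 419 to 1680 and 447 to 573 CPM in WT, 1360 to 2280 and 513 to 836 CPM in MKO). Of all 14486 genes, 2189 had an unadjusted p under 0.05 in MKO and 3080 in WT, and groups were apart for 21.7% in MKO. In a fit of only the groups compared, and without sedentary WT replicate 3, all 5 red blood cell markers passed in MKO. None of 10 muscle fibre markers passed, and their sums of 101000 to 145000 CPM over all libraries were far above those of the other lists. No marker of these lists was at 0 in every library of a group. The part of these cells in the fall of Cited2 was not tested.

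Genes with the pattern most like that of Cited2 were found by Pearson's r of log2 CPM over the 12 libraries among 13052 genes with a mean of at least 1 CPM. Because the libraries fall into sedentary and exercised sets, r follows mainly that split, so r after removing the group means is given beside it. The nearest were Cnot3 (0.983, and 0.627 within groups), Kcnj2 (0.98 and 0.763), Cd59a (0.976 and 0.675), Fmo1 (0.975 and -0.04), Cd200 (0.974 and 0.651) and Pdk4 (0.97 and 0.412). Within groups Fmo1 no longer followed Cited2, and Kcnj2, an inward rectifier potassium channel, followed it most closely of the 6.

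Since these genes were picked for following Cited2, their differences with running are given without a test. Cnot3, a subunit of the CCR4-NOT deadenylase, stood at -0.63 (log2, exercised over sedentary) in WT and -0.48 in MKO. Kcnj2 stood at -2.69 and -1.79, and Pdk4, which restrains pyruvate dehydrogenase, at -2.71 and -1.69. Cited2 stood at -3.03 and -2.33, and differences between genes were not tested.

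Most opposite were Smad3, Sema4c and Nr4a2, each at -0.981 over the 12 libraries, and at -0.722, -0.56 and 0.288 after removing the group means. Nr4a2, an orphan nuclear receptor induced by exercise, was at 0.535 to 1.33 CPM in the sedentary libraries and at 48.4 to 124 CPM in the exercised ones. Among the members, Egln2 had r of -0.757 with Cited2 (-0.769 within groups) and Hif1a 0.669 (0.532), and the other 7 lay between -0.409 and 0.41. Within groups these 7 lay between -0.033 (Vhl) and 0.612 (Arnt), with Vegfa at 0.547, Egln3 at 0.514 and Epas1 at 0.475.

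**Figure D5:**
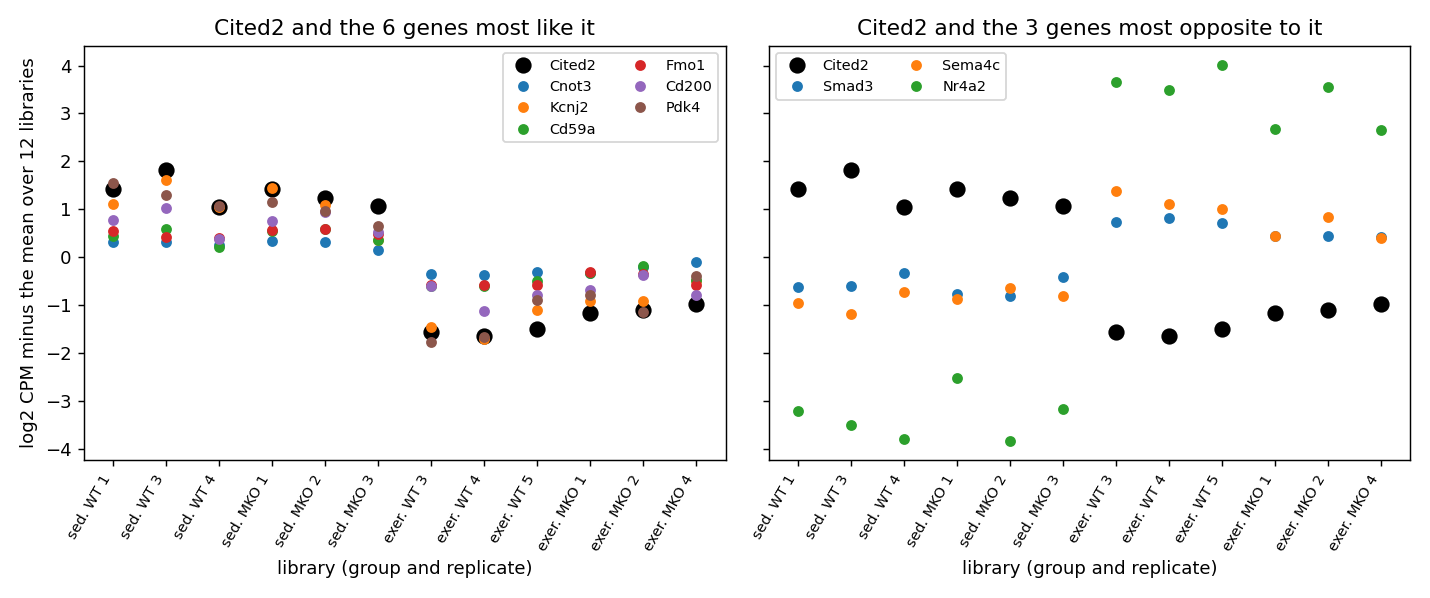
Log2 CPM minus the gene's mean over 12 libraries (vertical axis), by library, for Cited2 (black) with the 6 genes most like it (left) and the 3 most opposite to it (right). Cited2 and the 6 genes are above their means in all 6 sedentary libraries and below them in all 6 exercised ones.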

How the data were processed

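RNA from gastrocnemius was sequenced on the DNBSEQ platform, per the labels' protocols, which speak of 18 libraries; the 12 with labels here were analysed. The authors deposited 1 table of raw counts per Ensembl gene. The submitters' processing notes name HISAT2 2.2.1, StringTie 2.1.4, SAMtools 1.9, DESeq2 1.40.2 and build GRCm38.p6; no source used here states the counting step or its use of strand. Symbols matched 42462 of 43432 identifiers, and the other 970 held 0.0915% of counts.

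Groups came from the sample titles. Genes were kept by filterByExpr (minimum count 10, total 15), scaled by TMM and fitted in 1 model of 4 group means with edgeR 4.0.16 in R 4.3.3 (glmQLFit and glmQLFTest, residual df 8, biological coefficient of variation 15.3%). A gene passed at an adjusted p under 0.05, Benjamini-Hochberg over 14486 genes. The SE is the log2 fold change divided by the square root of F. The scripts were tested on simulated data first. Members and lists were chosen with earlier results of these data known. Named genes were the members, from each list up to 4 genes past the threshold each way per comparison, and the 6 genes most like and 3 most opposite to Cited2. Alternatives were DESeq2 1.42.0, limma-voom (limma 3.58.1), other scalings and filters, fewer groups, a replicate block and left-out libraries.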

Additional observations from a re-analysis of the deposited data

How the results depend on the processing

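The counts of members, HIF targets and listed genes past the threshold with running, and the fold changes given one by one (except those of Lox, Loxl2, the 9 glycolytic enzymes and genes named only for their likeness to Cited2 besides Cnot3, Kcnj2, Pdk4 and Smad3), were recomputed under 21 alternatives (20 for the difference of the responses, where a fit of only the groups compared is not possible). The fall of Cited2 in MKO passed in 21 of 21, at -2.48 to -2.24 (log2) with adjusted p from 3.13e-30 to 0.00501. HIF targets past the threshold numbered 6 to 8 in WT and 5 to 7 in MKO. The alternatives included a fit without 3 libraries chosen from earlier results: exercised MKO replicate 4, exercised WT replicate 5 and replicate 3 of sedentary MKO. There 2 members instead of 1 were past the threshold in WT, as Hif1a, at -0.71, joined Cited2. That count and that value are a description, and nothing is read from them. Under the same setting signs turned for Egln3 (0.183 for MKO minus WT at rest, -0.0215 for running in MKO) and Vhl (0.0285 for running in MKO). Leaving out 1 library at a time, MKO minus WT of Egln3 at rest ranged from -0.594 to 0.177 and the running difference of Vhl in MKO from -0.276 to 0.026, both highest without sedentary MKO replicate 3. Total counts alone moved the median of all genes to -0.10 in WT and -0.15 in MKO, the split of higher and lower calls from 599 and 594 to 469 and 863 in WT and from 332 and 254 to 259 and 596 in MKO, Egln1 in MKO to -0.0255, and P4ha1 in WT to an adjusted p of 0.132. Libraries with the same number did not deviate together (r of -0.153 to 0.0759 over 10 pairs, beside -0.103 to 0.109 over 44 other pairs). The labels do not say what the number stands for, and a shared origin was not tested. The replicate block left 1 member past the threshold in each running comparison, with Cited2 at -2.24 in MKO, and gave adjusted p of 0.057 for Plod2, 0.153 for Os9 and 0.13 for Flt1 in WT. Os9 in WT was also lost with only the groups compared (0.0528) and without the 3 libraries (0.0591). In MKO, Os9 turned to -0.0984 with total counts alone and -0.0338 without the 3 libraries, Crebbp turned to -0.0796 with total counts alone, P4ha1 passed without the 3 libraries (0.0323), and Angptl4 passed with total counts alone (0.0398) and with the replicate block (0.0399). The number of listed genes past the threshold ranged in WT and MKO from 1 to 3 and 1 to 2 for other components, 0 to 2 and 0 to 1 for VEGF genes, 3 to 6 and 3 to 3 for fibroblast, 1 to 2 and 1 to 2 for mural cell, 2 to 6 and 0 to 3 for endothelial, 0 to 3 and 0 to 0 for macrophage, and 0 to 2 and 0 to 5 for red blood cell markers. Vhl rests on 16 to 70 counts per library.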
